A study of Mus musculus with 12 samples.

Results

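Nucleolar ribosome biogenesis genes were followed here through wild-type thymocytes, thymocytes without the transcription factor TCF-1, and lymphomas of TCF-1-deficient mice. The set is a list of 38 named genes, chosen by function, though with earlier results of these data known. Of these, 36 had an array row of their own and are described below, out of 19938 genes with such a row. Noc2l was not matched in the annotation used here, and Ppan was matched only to a row it shares with another gene.

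The study measured RNA from sorted mouse cells on 12 Affymetrix Mouse Gene 1.0 ST arrays. DN3 thymocytes, the CD4- CD8- stage at which the T cell receptor beta chain is rearranged, came from wild-type mice (WT DN3, 3 arrays) and from TCF-1 KO mice (KO DN3, 3 arrays), both aged 8-12 weeks. T cell lymphoma cells were sorted from the thymus of TCF-1 KO mice with the disease (6 arrays, mice aged 12-40 weeks), so the lymphomas carry the same deletion as the KO DN3 cells and come from mice of another age range. All mice carry the strain label C57/BL6; no agent was given, the cells in which TCF-1 is deleted are not stated, and the replicates are called biological, without saying whether any animals were pooled.

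Ribosomes are built mainly in the nucleolus. RNA polymerase I transcribes the ribosomal RNA precursor, box C/D and box H/ACA snoRNA-protein particles modify it, and a series of assembly factors cleave and fold it with ribosomal proteins into a small and a large subunit. Growing cells need many ribosomes, and the transcription factor Myc is a known activator of many of these genes.

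Values are log2 signals normalised between arrays by RMA, which sets the probe signals of all arrays to 1 distribution. A difference of mean signal therefore places a gene against the rest of its array, and a change of total RNA per cell would not be seen. Array medians over genes still differed slightly, at 5.39 to 5.46 in WT, 5.45 to 5.51 in KO DN3 and 5.38 to 5.44 in lymphomas. Each row has its own probes, so levels of different genes are not compared. T-lineage and DN3 marker genes were bright (9 of 10 listed had a row, and their mean signal per array was 9.60 to 9.93 in DN3 cells and 9.09 to 9.75 in lymphomas). Per array, the 5 B cell marker rows averaged 4.58 to 4.93, the 7 myeloid and dendritic 4.66 to 4.87, the 4 erythroid 5.32 to 5.58, the 7 stromal 5.26 to 5.76 and the 5 NK 4.40 to 4.88. Against WT, the lymphoma mean was lower for 2 of 5 B cell markers (Cd79b called, -0.95) and 1 of 5 NK markers (Nkg7 called, -1.50). It was also lower for 4 of 7 stromal markers (Epcam called, -1.05), 2 of 7 myeloid and 3 of 4 erythroid markers, and higher for the rest. Only rows bright enough to be tested could be called: 2 B cell, 4 myeloid, 4 erythroid, 7 stromal and 1 NK. Of the tested rows that were higher, limma called 0. Of the 9 T-lineage and DN3 markers 7 were lower in lymphomas, with Rag1 (-1.92), Rag2 (-1.39), Dntt (-0.94) and Cd3g (-0.35) called by limma. The other 2, Cd3d (0.47) and Cd3e (0.38), were higher. They were not called, but every lymphoma array lay above every WT array. In KO DN3 cells 6 of these 9 were lower than in WT; Dntt was called (-0.69; limma adjusted p 0.0176), and Rag2 (-0.50), Rag1 (-0.30) and Cd3g (-0.25) were not called but had KO arrays clear below WT. The KO DN3 mean was above WT for 4 of 5 B cell, 6 of 7 myeloid and 5 of 7 stromal markers. It was also above for 3 of 5 NK and 2 of 4 erythroid markers, and below for the rest. Limma called 0 of those tested. The part of other cells or of DN3 maturity in the results below was not tested. Rows without a gene name set 4 arrays (WT DN3 1, KO DN3 1, lymphomas 1 and 2) apart from the other 8, with medians of 6.02 to 6.35 against 8.34 to 9.04; the labels name no cause. Results are therefore also given within these 2 sets of arrays. Xist, expressed in female cells, was low on KO DN3 3 and lymphomas 1, 2 and 6 and high on the other arrays.

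The first comparison asks what loss of TCF-1 does in DN3 cells before a tumour is present. Most of the 36 genes lay slightly below WT DN3 cells: 31 had a lower mean in KO DN3 cells, with a median difference of -0.16 (range -0.46 to 0.25) beside 0.03 over all 14953 genes tested, of which 44.7% were below 0. No member reached an adjusted p of 0.05 in limma with Benjamini-Hochberg adjustment over all genes tested (lowest 0.131), where 1.99% of all genes did. At an unadjusted p under 0.05, 10 of 36 members were lower and 0 higher, beside 10.3% of all genes lower and 6.06% higher. In 9 members the 3 KO arrays all lay under the 3 WT arrays, beside 11.6% of all genes. Fewer cells of a type and less RNA per cell cannot be told apart in such bulk samples.

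Array numbers 1 to 3 were taken to pair WT and KO DN3 cells, since arrays of the same number deviated together. The pairing thus comes from the same values that the block then tests, so its calls are no independent support. The labels state no such pairing. The arrays numbered 1 are also those of the smaller array set, so for them number and set cannot be told apart. With the number as a block, limma called 4 members lower (adjusted p 0.0167 for Dkc1, 0.0292 for Gnl3, 0.0303 for Nop14 and 0.0464 for Utp15), beside 6.35% of all genes called lower and 2.88% higher in that fit. With a term for the array set, Dkc1 (adjusted p 0.0314) and Gnl3 (0.0475) were called, beside 5.04% of all genes in either direction. Within the smaller set (1 array each) 27 of 36 members lay below 0 with a median of -0.20; within the larger (2 arrays each) it was 33 of 36 and -0.16.

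**Figure D1:**
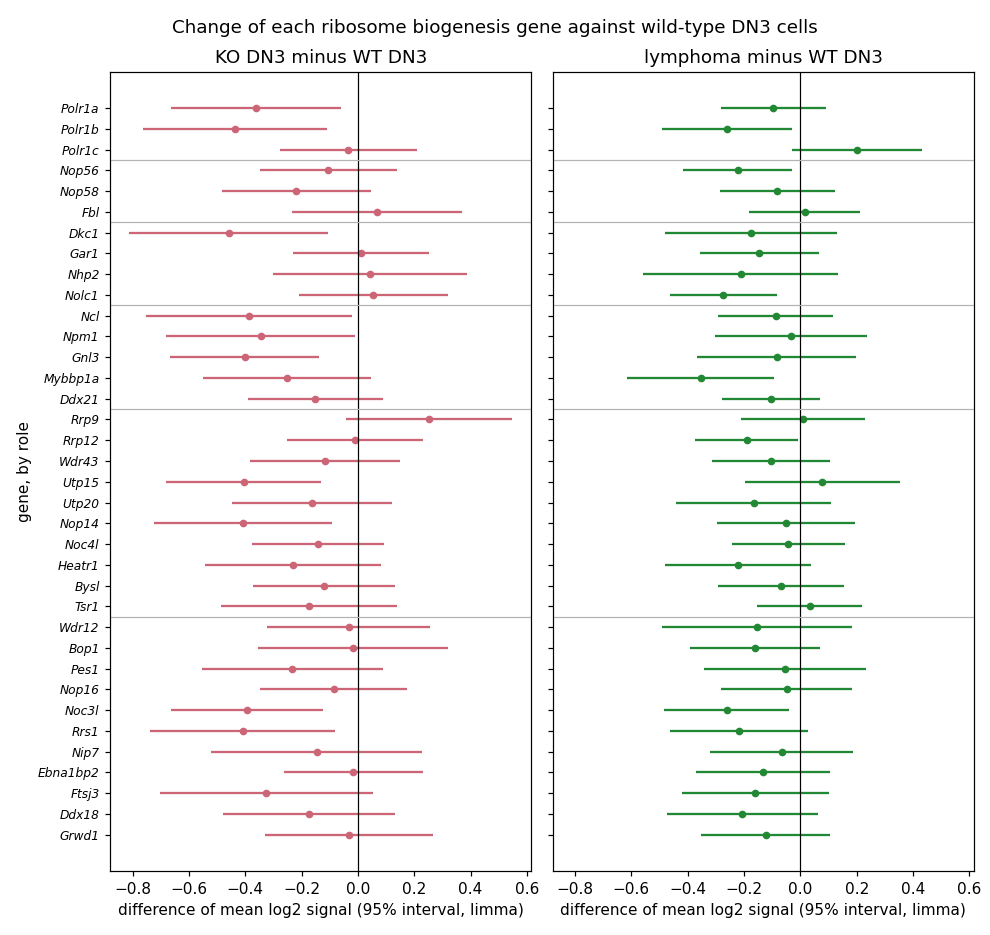
Difference of mean log2 signal from WT DN3 cells for each of the 36 genes, ordered by role (grey lines part the roles), for KO DN3 cells (left, 3 against 3 arrays) and lymphomas (right, 6 against 3); points are differences and bars 95% intervals from limma. In each panel 31 of 36 points lie left of 0, and most bars cross it.

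RNA polymerase I is represented by 3 subunit genes, and both large catalytic subunits lay low in KO DN3 cells. Polr1b, which encodes the second-largest subunit, had signals of 6.33, 6.37 and 6.55 on the WT arrays and 5.94, 6.27 and 5.73 on the KO arrays. The groups do not overlap, and KO DN3 2 is the array nearest to wild type. The difference was -0.43 (SE 0.15, 95% interval -0.76 to -0.11), with an adjusted p of 0.182 in limma. In the 6 lymphomas Polr1b ran from 5.85 (lymphoma 2) through a median of 6.23 to 6.27, all under the lowest WT array; the difference was -0.26 (SE 0.11; limma adjusted p 0.245). Polr1a, the largest subunit, had 6.81, 6.82 and 7.04 in WT and 6.31, 6.72 and 6.55 in KO DN3 cells (difference -0.36, SE 0.14; limma adjusted p 0.221). Polr1c, a subunit shared with RNA polymerase III, stood apart from both: 8.22, 8.11 and 8.05 in WT, 8.13, 8.09 and 8.06 in KO, and 8.14 to 8.59 (median 8.27) in the lymphomas. Every lymphoma lay above every KO DN3 array for Polr1c (difference 0.24, SE 0.11; limma adjusted p 0.198), with lymphomas 1 and 2, both of the smaller array set, highest.

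The box C/D particle genes differed little in KO DN3 cells (median -0.10). Nop56, a core scaffold protein of the particle, had 9.56, 9.61 and 9.73 in WT, 9.57, 9.53 and 9.50 in KO, and 9.23 to 9.51 (median 9.46) in the lymphomas. The lymphomas all lay under the WT arrays (difference -0.22, SE 0.09; limma adjusted p 0.223), while WT and KO overlapped. Nop58, its partner, was -0.22 in KO DN3 cells (SE 0.12), with all 3 groups overlapping. The methyltransferase gene Fbl was the least moved in the lymphomas after Rrp9 (0.02, SE 0.09). Its row used here, at about 10.14 in WT, lies in the array's numbering among rows of genes on another chromosome. The other Fbl row, among rows of the gene's own chromosome, is dim (5.61 ± 0.19 in WT, 5.68 ± 0.09 in KO, SD, n = 3; 5.51 ± 0.08 in lymphomas, SD, n = 6).

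Among the box H/ACA genes, Dkc1 was lowest in KO DN3 cells and Nolc1 in the lymphomas. Dkc1 encodes dyskerin, the pseudouridine synthase, and had 8.70, 9.08 and 9.04 in WT against 8.19, 8.72 and 8.54 in KO. Each KO array lay below the WT array of its number, though the groups overlap at WT DN3 1 and KO DN3 2. The difference, -0.46 (0.728-fold; 95% interval -0.81 to -0.11), was the largest of the 36 in this comparison (limma adjusted p 0.19 without the block). Nolc1, a chaperone of snoRNA particles in the nucleolus and Cajal bodies, had 8.18, 8.08 and 8.32 in WT and 8.37, 8.16 and 8.21 in KO, an overlap. All 6 lymphomas were lower, from 7.78 through 7.90 to 8.06, under every DN3 array. Against KO DN3 cells this was -0.33 (SE 0.09, 95% interval -0.53 to -0.13; limma adjusted p 0.053), and against WT -0.27 (SE 0.09; limma adjusted p 0.11). Gar1 and Nhp2, small proteins of the same particle, differed by 0.01 and 0.04 in KO DN3 cells. Nhp2 varied most of all members across lymphomas (SD 0.29), from 7.08 in lymphoma 3 to 7.93 in lymphoma 1.

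The 5 general nucleolar proteins all lay below 0 in KO DN3 cells, with a median of -0.35. Gnl3 (nucleostemin, a GTPase abundant in dividing and stem cells) had 9.67, 9.48 and 9.46 in WT and 9.25, 9.13 and 9.02 in KO, without overlap. The difference was -0.40 (SE 0.12, 95% interval -0.67 to -0.14; limma adjusted p 0.131), with -0.42 within the smaller and -0.39 within the larger array set. Gnl3 divided the lymphomas: lymphomas 2 and 4, at 9.17 and 9.15, lay within the KO range, and the other 4, at 9.53 to 9.65, within the WT range. Ncl (nucleolin, an abundant RNA-binding protein) had 10.86, 11.05 and 10.71 in WT, 10.17, 10.81 and 10.49 in KO and 10.70 to 10.93 (median 10.77) in the lymphomas. Npm1 (nucleophosmin, a histone and ribosome chaperone) had 11.06, 11.14 and 10.73 in WT, 10.47, 10.89 and 10.54 in KO and 10.66 to 11.12 (median 10.99) in the lymphomas. In KO DN3 cells Ncl differed by -0.39 (SE 0.17; limma adjusted p 0.282) and Npm1 by -0.35 (SE 0.15; limma adjusted p 0.293), and KO DN3 2 overlapped WT in each. Both were further from WT within the smaller array set (-0.70 and -0.59) than within the larger (-0.23 and -0.22). A further 3 Npm1 rows, each shared with a second symbol, gave -0.35, -0.23 and -0.36. Mybbp1a, a Myb-binding nucleolar protein, was lowest relative to WT in the lymphomas: 7.20, 7.41 and 7.60 in WT against 6.82 to 7.34 (median 7.05), a difference of -0.35 (SE 0.12; limma adjusted p 0.14) with overlap through lymphoma 6. The RNA helicase gene Ddx21 was -0.15 in KO DN3 cells (SE 0.11).

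Small-subunit factors lay below 0 in KO DN3 cells for 9 of 10 genes (median -0.15). Utp15, part of the early complex on the RNA precursor, had 7.63, 7.51 and 7.49 in WT and 6.97, 7.32 and 7.13 in KO. All KO arrays lay under the WT arrays (difference -0.40, SE 0.12, 95% interval -0.68 to -0.13; limma adjusted p 0.143), with -0.66 within the smaller and -0.28 within the larger array set. In the lymphomas Utp15 ran from 7.38 through 7.59 to 7.91, above every KO array and on both sides of WT; against KO the difference was 0.48 (SE 0.14, 95% interval 0.18 to 0.78; limma adjusted p 0.0567). Nop14, a small-subunit assembly factor, had 8.18, 7.98 and 7.88 in WT and 7.81, 7.65 and 7.35 in KO, again without overlap (difference -0.41, SE 0.14; limma adjusted p 0.195), and 7.74 to 8.22 (median 8.00) in the lymphomas. Rrp12, an export factor of pre-ribosomes, was flat between WT (5.38, 5.54, 5.42) and KO (5.44, 5.43, 5.44) and lower in every lymphoma (5.08 to 5.36, median 5.28). That lymphoma difference was small, -0.19 against WT (SE 0.08; limma adjusted p 0.287), and the row is dim. Rrp9, a U3 snoRNA particle protein, was the member furthest in the other direction in KO DN3 cells (0.25, SE 0.13), with WT and KO arrays overlapping. The other 6 (Wdr43, Utp20, Noc4l, Heatr1, Bysl and Tsr1) ran from -0.23 to -0.12 in KO DN3 cells and from -0.22 to 0.03 in lymphomas against WT; of them Noc4l alone had KO arrays (6.20 to 6.23) clear of WT (6.32 to 6.40).

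By the rows used, all 11 large-subunit factors had a lower mean than WT in KO DN3 cells (median -0.15) and in lymphomas (median -0.15); the 2 comparisons share the WT arrays. Noc3l, a nuclear assembly factor of the large subunit, had 6.73, 6.68 and 6.86 in WT and 6.40, 6.49 and 6.20 in KO. The groups do not overlap (difference -0.39, SE 0.12, 95% interval -0.66 to -0.12; limma adjusted p 0.147). Its lymphoma values were 6.79 in lymphoma 1 and 6.34 to 6.50 in the other 5, and with lymphoma 1 left out limma called Noc3l lower than WT, beside 5.83% of all genes called. Rrs1, which brings the 5S particle to the early large subunit, had 8.58, 8.42 and 8.46 in WT, 8.03, 8.38 and 7.82 in KO and 8.04 to 8.48 (median 8.26) in the lymphomas. KO DN3 2 lay just under WT (difference -0.41, SE 0.15; limma adjusted p 0.205). The Bop1, Pes1 and Wdr12 proteins form 1 complex needed for large-subunit RNA processing, and in KO DN3 cells their genes differed by -0.02, -0.23 and -0.03. For Bop1 the array sets went opposite ways (0.45 in the smaller, -0.25 in the larger), as they did for Wdr12 (-0.31 and 0.10). Wdr12 was the second most variable member over lymphomas, from 8.00 in lymphoma 3 to 8.62 in lymphomas 1 and 6. Ftsj3, Ddx18, Nip7, Nop16, Grwd1 and Ebna1bp2 ran from -0.32 to -0.02 in KO DN3 cells, each with overlapping arrays; the row used for Ddx18 gave -0.17. That row has 0 of its 10 neighbours in the array's numbering on the gene's chromosome, and a second Ddx18 row, with 10 of 10 there, gave 0.10; with it 10 of 11 large-subunit factors lay below 0.

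**Figure D2:**
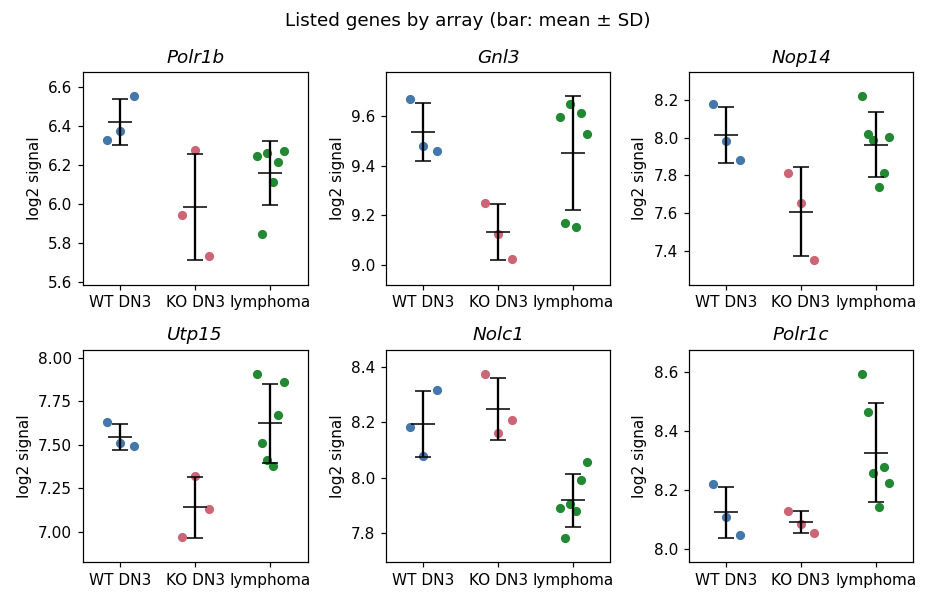
Log2 signal on each array for Polr1b, Gnl3, Nop14, Utp15, Nolc1 and Polr1c in WT DN3 (n = 3), KO DN3 (n = 3) and lymphoma (n = 6) samples, with mean ± SD; each panel has its own axis, which does not start at 0. Polr1b, Gnl3, Nop14 and Utp15 have KO points under all WT points, and Nolc1 has lymphoma points under all DN3 points.

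The second comparison sets the lymphomas against WT DN3 cells, a contrast of tumour state, TCF-1 and age together, which cannot be told apart. Lymphomas 1, 2 and 6 are also Xist-low, while all WT arrays are Xist-high. The members were again mostly lower: 31 of 36 were below 0, with a median of -0.11 beside -0.01 for all genes, of which 51.7% were below 0. The size ran from -0.35 (Mybbp1a) to 0.20 (Polr1c). Limma called 0 of 36 members, beside 5.82% of all genes; at an unadjusted p under 0.05, 6 were lower and 0 higher, beside 7.68% of all genes lower and 7.86% higher. In 4 members (Nolc1, Polr1b, Nop56 and Rrp12) all 6 lymphomas lay under the 3 WT arrays, beside 5.04% of all genes. Within the smaller array set 29 of 36 were below 0 (median -0.13), and within the larger 31 of 36 (median -0.11).

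Lymphomas against KO DN3 cells compares TCF-1-deficient cells with and without the tumour. The mice also differ in age range (12-40 against 8-12 weeks), which cannot be told apart from the tumour. Lymphomas 1, 2 and 6 and KO DN3 3 are Xist-low. The members did not move one way: 22 of 36 were above 0, with a median of 0.05 beside -0.03 for all genes, of which 56.5% were below 0. The 3 polymerase genes lay above 0 (0.17 to 0.27), as did 4 of 5 general nucleolar genes (median 0.30), while the box H/ACA genes had a median of -0.21. Within the smaller array set 25 of 36 were above 0 (median 0.11), and within the larger 21 of 36 (median 0.05). Limma called 0 of 36 members, beside 6.62% of all genes. At an unadjusted p under 0.05, 7 were higher and 2 lower, beside 13.2% and 11.5% of all genes. Utp15 and Polr1c were above KO on every lymphoma array (beside 7.34% of all genes), and Nolc1 and Rrp12 below on every one (6.23%). Alternatives changed calls here: limma fitted to all 12 arrays called Nolc1 and Utp15, beside 8.94% of all genes, and the fit with the array set as a term called those 2 and Nop14, beside 11.4% of all genes. Utp15 was called with arrays centred on their median (7.84% of all genes) and without lymphoma 4 (7.3%). Without KO DN3 2, Nolc1, Ncl and Utp15 were called, beside 9.1% of all genes, a share near theirs.

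The 6 lymphomas did not share 1 level. Lymphomas 2, 3, 4 and 5 had median deviations from the WT mean of -0.19, -0.16, -0.18 and -0.18 over the 36 members, while lymphomas 1 and 6 had 0.04 and 0.03. For comparison, KO DN3 arrays 1, 2 and 3 had -0.20, -0.07 and -0.23. Counted by gene, 25, 24, 24 and 21 members lay below all 3 WT arrays in lymphomas 2 to 5. In lymphomas 1 and 6 it was 12 and 6. Over all genes the share was 27.7% to 31.5% per lymphoma. Lymphoma 6 was the highest of the 6 for 17 members and lymphoma 1 for 13, while lymphoma 2 was the lowest for 16. Over all genes tested, these shares were 14.4%, 20.6% and 14%. In the array sets, lymphomas 1 and 2 share the smaller set and differ in this respect.

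**Figure D3:**
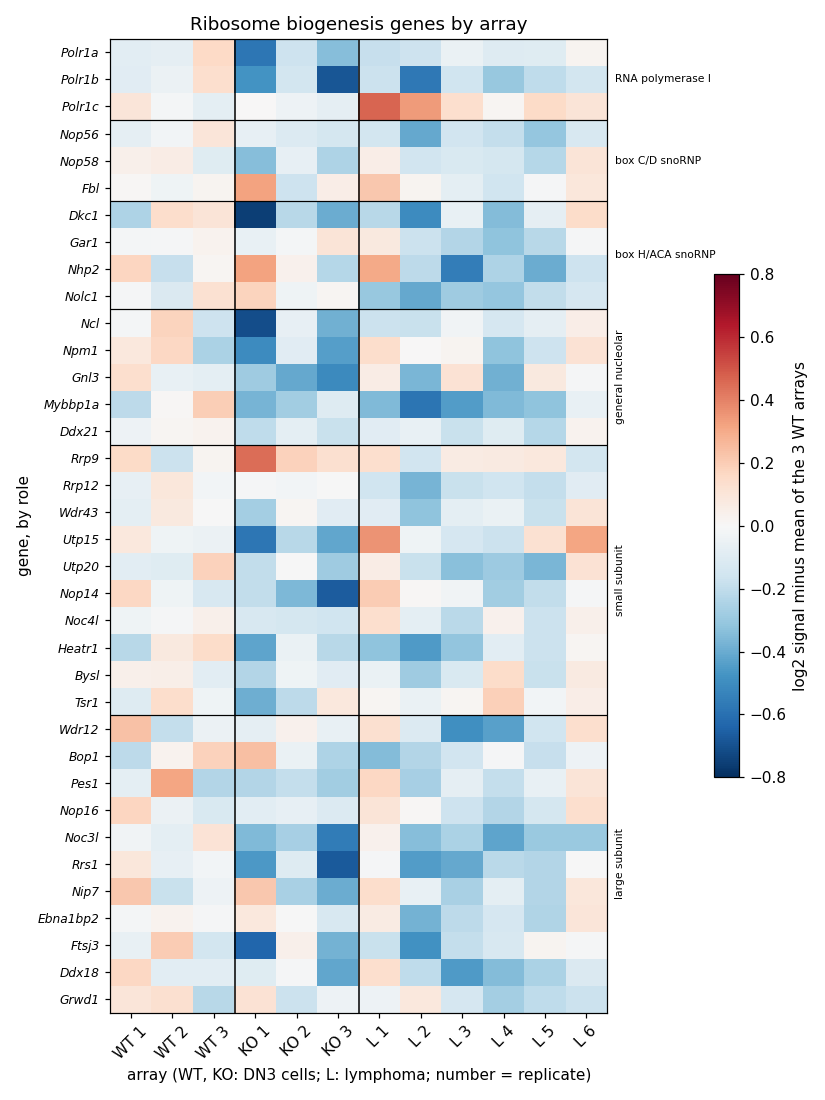
Log2 signal minus the mean of the 3 WT arrays for each of the 36 genes (rows, by role, parted by black lines) on each of the 12 arrays (columns; WT and KO are DN3 cells, L are lymphomas); red is above and blue below the WT mean. Blue fills most of KO 1, KO 3 and L 2 to L 5, and L 1 and L 6 are paler or red.

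The rest of the pathway was read from a second list, 111 other ribosome biogenesis genes with a row of their own, of 112 listed. In KO DN3 cells 87 of 111 lay below 0, with a median of -0.22, and 35 were lower and 1 higher at an unadjusted p under 0.05 (10.3% and 6.06% of all genes). The small-subunit factors of this list had 28 of 35 below 0 (median -0.29), the large-subunit factors 35 of 43 (-0.21), polymerase I genes 10 of 12 (-0.23), snoRNA particle genes 7 of 10 (-0.12) and exosome genes 7 of 11 (-0.12). In 37 genes the KO arrays lay clear below WT, beside 11.6% of all genes. Limma called 2 lower and 0 higher, beside 1.42% of all genes called lower, so the called share is near the background; with the replicate block it called 19 lower and 1 higher, beside 6.35% and 2.88% of all genes.

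Both called genes had KO arrays below every WT and every lymphoma array; the comparisons that follow share these KO arrays. Znhit6, an assembly factor of box C/D particles, had 8.44, 8.57 and 8.55 in WT, 8.05, 8.00 and 7.70 in KO and 8.33 to 8.74 (median 8.51) in the lymphomas. It fell by 0.60 in KO DN3 cells (SE 0.13; limma adjusted p 0.0393) and was 0.61 higher in lymphomas than in KO (SE 0.12; limma adjusted p 0.0122). Gnl2, a GTPase of the large subunit, had 7.81, 7.98 and 7.74 in WT, 7.23, 7.45 and 7.11 in KO and 7.63 to 7.81 (median 7.71) in the lymphomas. In 4 of the 6 lymphomas Gnl2 lay under the lowest WT array. It fell by 0.58 in KO DN3 cells (SE 0.13; limma adjusted p 0.0484), a call lost when any 1 WT array or KO DN3 1 or 3 was left out, while that of Znhit6 was lost without any 1 WT array or KO DN3 3. KO DN3 3 is also the only Xist-low array of this comparison, and with a term for Xist 0 genes of the list were called. In the lymphomas Gnl2 was 0.46 above KO (SE 0.09; limma adjusted p 0.0135).

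Of this list, 8 genes were higher in lymphomas than in KO DN3 cells and 0 lower, beside 4.5% of all genes called higher: Znhit6, Gnl2, Utp14a, Riok2, Ddx10, Riok1, Nsa2 and Efl1. Riok2, a kinase of late small-subunit maturation, had 7.05, 7.33 and 7.25 in KO and 7.49 to 8.14 (median 7.96) in the lymphomas, a rise of 0.69 (SE 0.14; limma adjusted p 0.0119). Utp14a, a small-subunit factor, had 6.44, 6.58 and 6.27 in KO and 6.80 to 7.09 (median 6.95) in the lymphomas, a rise of 0.50 (SE 0.10; limma adjusted p 0.0119). For these 8 genes the lymphoma arrays all lay above the KO arrays. The count was 16 without KO DN3 2, 2 without KO DN3 1, 1 without KO DN3 3 and 4 without lymphoma 3, 5 or 6.

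A different pair was called in lymphomas against WT, 2 genes lower and 0 higher, beside 2.86% called lower among all genes. Rrp1b, a large-subunit factor, had 6.96, 6.84 and 6.80 in WT, 6.11, 6.60 and 6.31 in KO and 6.42 to 6.63 (median 6.50) in the lymphomas, all under WT. It fell by 0.35 in lymphomas (SE 0.08; limma adjusted p 0.0229). Taf1a, a subunit of the SL1 factor that places RNA polymerase I on its promoter, had 8.25, 8.09 and 7.72 in WT, 7.01, 7.61 and 7.06 in KO and 7.09 to 7.90 (median 7.21) in the lymphomas. It fell by 0.73 in lymphomas (SE 0.18; limma adjusted p 0.0294), with lymphoma 6 overlapping WT, and was -0.79 in KO DN3 cells (SE 0.18; limma adjusted p 0.0601). Either call was lost without WT DN3 1 or 2; without WT DN3 3 Taf1a alone, and without lymphoma 2, 3, 4 or 5 Rrp1b alone, was called.

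**Figure D4:**
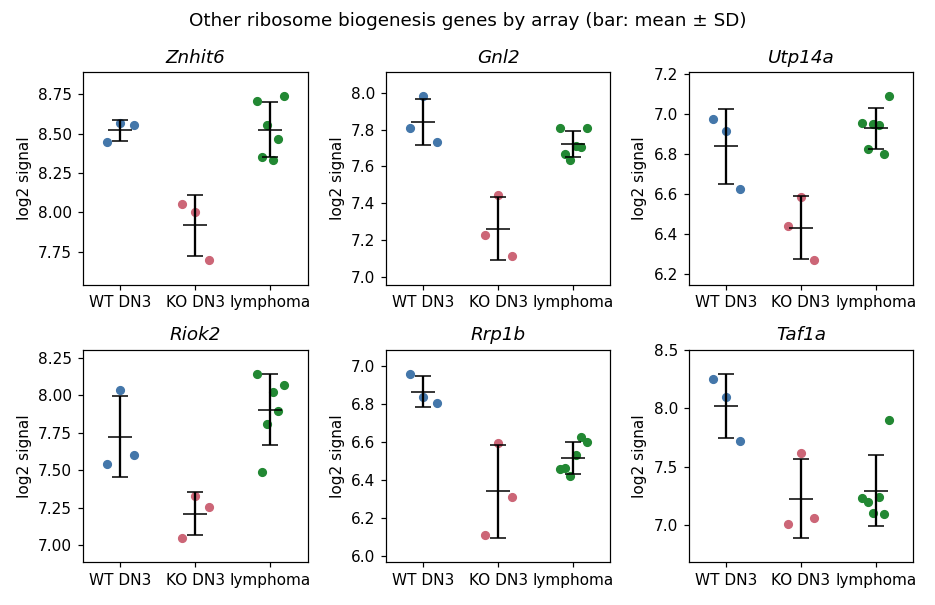
Log2 signal on each array for 6 called genes of the second list in WT DN3 (n = 3), KO DN3 (n = 3) and lymphoma (n = 6) samples, with mean ± SD; each panel has its own axis, which does not start at 0. Znhit6, Gnl2, Utp14a and Riok2 are lowest in KO DN3 cells, and Rrp1b and Taf1a are low in KO DN3 cells and lymphomas.

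The second list divided the lymphomas in the same places. Lymphomas 1 and 6 had 47 and 40 of 111 genes above all WT arrays and 21 and 15 below, beside 30.7% and 26.1% of all genes above and 30.5% and 30.1% below. Lymphomas 2 to 5 had 56, 61, 61 and 61 below, beside 27.7% to 31.5% of all genes. The medians were 0.09 and 0.04 in lymphomas 1 and 6 and -0.13 to -0.11 in the other 4. Proliferation genes followed only in part: in lymphoma 6, 8 of 11 lay above all WT arrays (median 0.25), in lymphoma 1, 2 of 11 (median -0.03), and in lymphoma 3, 10 of 11 lay below (median -0.25). In KO DN3 cells the proliferation genes had medians of 0.03, 0.12 and 0.09 on the 3 arrays, above WT where the ribosome biogenesis genes were below. Their part in the result was not tested.

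**Figure D5:**
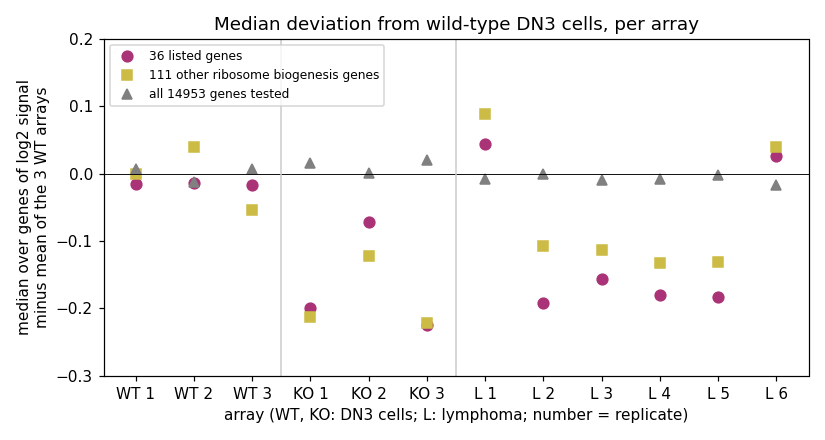
Median over genes of the log2 signal minus the mean of the 3 WT arrays, on each of the 12 arrays, for the 36 listed genes (circles), the 111 other ribosome biogenesis genes (squares) and all 14953 genes tested (triangles). Circles and squares lie below 0 on the 3 KO arrays and lymphomas 2 to 5 and above 0 on lymphomas 1 and 6, and triangles stay near 0.

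Myc itself had 10.02, 9.96 and 9.68 in WT, 9.52, 9.49 and 9.80 in KO, and 9.91, 9.63, 9.75, 9.45, 9.72 and 9.90 in lymphomas 1 to 6. The groups overlap; KO DN3 cells differed from WT by -0.28 (SE 0.14; limma adjusted p 0.338) and lymphomas by -0.16 (SE 0.12; limma adjusted p 0.648). Lymphomas 1 and 6 had the highest Myc signals among the tumours. On KO DN3 1, 2 and 3, by contrast, the member medians were -0.20, -0.07 and -0.23, lowest where Myc was highest. Any link of Myc to the members was not tested. Its relative Mycn was 0.29 above WT in KO DN3 cells (SE 0.12; limma adjusted p 0.275) and -0.09 in lymphomas, and Max, the partner of both, differed by -0.13 and -0.07. In lymphomas against WT, Mycn was 0.10 within the smaller array set and -0.19 within the larger, and its direction also turned without lymphoma 5; that of Max turned with a term for Xist.

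Promoters of these genes were read from RefSeq windows of 250 bases before to 50 after the start (assembly GRCm38.p6), which held 36 windows for 33 of the 38 genes. The motifs were searched on both strands. The Myc E-box CACGTG was in 6 of 36 windows (16.7%), beside 9.19% of windows of the genes tested and 7.15% of all windows. The 6 genes are Pes1, Wdr43, Tsr1, Grwd1, Utp20 and Mybbp1a, named after the search, and in each the E-box lies after the start; they differed by -0.25 to -0.03 in KO DN3 cells. The TCF/LEF core CTTTGAT was in 1 window (2.78%, that of Noc4l), beside 2.78% for genes tested. An ETS site, CCGGAAGT, was in 11 windows (30.6%), beside 6.59% for genes tested and 3.89% for all. The ZNF143-type motif, searched as CTAC, any 3 bases and TCCCAG, was in 4 (11.1%), beside 2.39% and 1.31%. These last motifs were chosen after reading the members' promoters, 0 member windows hold both, and a match describes letters, not binding.

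The 120 bases before the start are shown for the 5 members with full values above that hold either motif there, in capitals, because they include genes low in KO DN3 cells (Polr1b, Nop14), above KO DN3 cells in every lymphoma (Polr1c) and most variable over lymphomas (Wdr12, Nhp2). All are written 5′ to 3′ on the gene's strand. Polr1b lies at chr2:129100876-129100995 (plus strand), Nop14 at chr5:34660149-34660268 (minus), Wdr12 at chr1:60097908-60098027 (minus), Polr1c at chr17:46248046-46248165 (minus) and Nhp2 at chr11:51619653-51619772 (plus). Capitals mark the ZNF143-type motif in the first 3 and the ETS site in the last 2:
Polr1b: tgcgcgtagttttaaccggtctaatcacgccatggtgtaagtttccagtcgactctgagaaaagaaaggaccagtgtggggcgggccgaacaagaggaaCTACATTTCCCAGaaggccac
Nop14: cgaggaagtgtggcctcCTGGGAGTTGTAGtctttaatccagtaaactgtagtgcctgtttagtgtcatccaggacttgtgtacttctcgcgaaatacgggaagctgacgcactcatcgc
Wdr12: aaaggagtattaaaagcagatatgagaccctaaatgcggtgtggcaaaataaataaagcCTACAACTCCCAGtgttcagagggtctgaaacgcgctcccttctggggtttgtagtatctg
Polr1c: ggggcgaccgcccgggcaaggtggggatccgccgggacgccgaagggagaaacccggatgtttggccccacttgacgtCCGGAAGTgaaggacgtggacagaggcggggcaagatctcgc
Nhp2: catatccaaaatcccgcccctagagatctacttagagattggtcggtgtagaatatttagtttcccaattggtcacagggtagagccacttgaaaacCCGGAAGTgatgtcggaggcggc

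The motif begins at -21 in Polr1b, -103 in Nop14 (where it reads on the other strand), -61 in Wdr12, -42 in Polr1c and -23 in Nhp2, counted from the start. For Wdr12 the motif is in the window of a single annotated start and not in those of its other starts. Genes with the same letters include ones with different patterns across the groups: Polr1b and Nop14 were -0.43 and -0.41 in KO DN3 cells, and Wdr12 was -0.03. Nop16, the remaining member with the ZNF143-type motif, was -0.09.

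Several members carry small nucleolar RNAs in their introns, and 4 of these had a row. Snord57, in Nop56, had 7.51, 7.68 and 7.05 in WT, 5.81, 7.06 and 6.15 in KO and 6.80 to 7.84 in the lymphomas, with group means of 7.41, 6.34 and 7.42. WT and KO just overlap, at WT DN3 3 and KO DN3 2, and the host gene Nop56 was -0.10 in the same comparison. Snord82, in Ncl, had group means of 8.73, 7.82 and 9.01, with KO DN3 1 lowest at 6.52, and Snora75, in the same gene, had 8.59, 8.82 and 8.81. Snord53, in Wdr43, had 7.49, 7.15 and 7.45. Snora75 ran from 8.46 to 8.75 in WT and from 8.09 to 9.36 in KO, so these groups overlap, as they do for Snord82. KO DN3 1 was the lowest array for both. Only by group means did these RNAs of Ncl differ in direction in KO DN3 cells. These 4 were looked at after the members' values were seen, and are given without a test.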

How the data were processed

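RNA of 12 samples was amplified with a NuGEN Pico kit, which starts from very small amounts, and hybridised to Affymetrix arrays, per the labels' protocols. The authors deposited 1 signal per row and array, which the submitters' processing notes tie to RMA and Partek; the log base is not stated in the sources used here, and the deposited values were taken as log2 from their range. Of 35556 rows, 21789 carry 1 gene symbol, 1621 several and 12146 none. The row with the highest mean stood for each of 19938 genes; genes with a mean under the 25th percentile (4.78) were left out, and all 36 members passed.

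Differences were tested with limma 3.58.1 (R 4.3.3; lmFit and eBayes, two-sided) on the 2 groups compared, with Benjamini-Hochberg adjustment over 14953 genes and calls at 0.05; the script was tested on simulated data. The number of arrays limits the precision. Arrays of 1 group correlated at 0.971 to 0.989, and 0 pairs were identical. Whether the biological replicates are separate animals is not said, so p-values measure only the spread between these samples. The pairing of WT and KO DN3 arrays was taken from the data. Deviations from the group means correlated at 0.506, 0.418 and 0.254 for arrays of the same number, and at -0.409 to 0.058 for others. Deviations within a group cancel out, so positive values for same numbers push the others down. Part of this contrast is therefore built in. WT DN3 1 deviated about as much with lymphomas 1 and 2 (0.438 and 0.445), which share its array set. The shared deviation of the arrays numbered 1 thus cannot be told apart from the array set. The block is therefore given beside results it changes.

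Named genes are all members, with full values for called members, for up to 6 members per comparison with the largest difference without overlap, and for the 3 most variable over lymphomas; called genes of the second list with the lowest p; and Myc, Mycn and Max. The members and lists were chosen with earlier results of these data known. Alternatives were median centring, other filters, averaged rows, another variance model, 1 fit to all arrays, a replicate block, the array set or Xist as a term, and leaving out each array.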

Additional observations from a re-analysis of the deposited data

Results flagged for a closer look

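In 3 of 36 members, Dixon's test set 1 of the 6 lymphomas apart from the other 5. The gap to its nearest neighbour was above the test's critical share of the group's range. Each passed only narrowly, at 0.63 of the range in Polr1b, 0.634 in Noc3l and 0.636 in Rrp12. Chance gives about 1 in 20 groups. How often this occurs over all genes was not tested, so whether 3 of 36 exceeds the background is not known. Polr1b was lowest in lymphoma 2, at 5.85. Rrp12 was lowest in the same tumour, at 5.08. Noc3l was highest in lymphoma 1, at 6.79.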

How the results depend on the processing

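Under the alternatives run, the median difference of the members kept its sign in all 3 comparisons, and in KO DN3 against WT cells it moved most with arrays centred on their median (-0.22, with 34 of 36 below 0). Leaving out 1 array at a time gave medians of -0.18 to -0.13 for KO DN3 against WT, -0.14 to -0.09 for lymphomas against WT and 0.02 to 0.09 for lymphomas against KO. The members called numbered 0 to 0, 0 to 1 and 0 to 3 in these runs, the genes of the second list 0 to 7, 0 to 2 and 1 to 16, and all genes 57 to 443, 560 to 872 and 431 to 1361. For KO DN3 against WT, the replicate block called 4 members, 20 genes of the second list and 1380 genes in all, against 0, 2 and 298 without it; the array set as a term called 2, 9 and 754. A term for Xist, which only KO DN3 3 sets apart there, called 0 of the second list and 126 genes (68 higher, 58 lower, against 85 and 213). Without the filter and with the trended variance the second list had 1 call. For lymphomas against WT it had 1 call with 1 fit to all arrays and 1 with the replicate block, where arrays share only a number. For lymphomas against KO, members called were 1 with centring, 2 with 1 fit to all arrays and 3 with the array set; the second list had 3 calls with the replicate block and 13 with the array set, which called 1702 genes. Centring moved the split of all genes to 966 higher and 206 lower, from 673 and 317. Max in lymphomas turned to 0.015 against WT with Xist as a term, and against KO to -0.0059 with the replicate block and -0.058 without KO DN3 1 (up to 0.13 without other arrays); Mycn against WT turned to 0.0053 without lymphoma 5 (down to -0.15 without other arrays). The cause was not tested. With 3 arrays a group, a member's median SE was 0.13 beside a median difference of -0.16. For KO DN3 against WT, the smallest called fall of the second list was 0.58, and most member differences lie well below it. A call also depends on each gene's SE, so 0.58 is not a limit of this design. The replicate block called Utp15 at -0.40.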
